A study of Homo sapiens with 4 samples.

Results

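Histone methyltransferases add methyl groups to lysines of the histone tails, and histone demethylases remove them. The mRNAs of 41 genes of these enzyme families were looked up, 24 methyltransferases (writers) and 17 demethylases (erasers). The writers include SETD3, SETD5 and KMT2E, whose histone substrate is not settled. Genes were matched by Ensembl gene identifier among the 63677 genes of a table of read counts from ORC1 RNA immunoprecipitation (RIP-seq). All 41 identifiers were in the table, and 40 held enough reads to be tested, of 14645 genes tested in all. The exception was KMT2B, which was listed at 0 counts in all 4 libraries.

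The libraries were made from nuclear RNA of HCT116, an epithelial cell line of a human colorectal carcinoma. All cells had been transfected for 48 h with a pcDNA3.1 plasmid for 3xFLAG-tagged ORC1. ORC1 is part of the origin recognition complex, which marks the sites where DNA replication can start. RNA was recovered with an anti-FLAG antibody without crosslinking (IP, 2 libraries) and sequenced beside RNA of the nuclear extract (Input, 2 libraries), to learn which nuclear RNAs come down with ORC1. Neither a control antibody nor untransfected cells were among the 4 libraries, which left Input as the single reference. The tagged ORC1 was transiently expressed, and ORC1 itself stood at 333 CPM (read counts scaled to the size of the library) in Input replicate 1 and at 5063 in Input replicate 2, a 15.2-fold gap; its IP levels were 1108 and 18551 CPM. The plasmid's ORC1 sequence was codon-optimized, and how many of its reads were counted in the ORC1 gene was not tested. The part of ORC1 in the differences between replicates was not tested either.

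The IP libraries held 27483148 and 20280445 reads counted in genes, against 14677002 and 9213877 for Input. Of 8 epithelial markers for HCT116 cells, 6 were tested (KRT8, KRT18, KRT19, CDH1, EPCAM and CLDN4), VIL1 stayed under 1 CPM in all libraries and LGALS4 had no count; the 8 together held 4585 and 4233 CPM in IP against 2417 and 2675 CPM in Input. Of 10 markers of blood, fibroblast, endothelial, liver, glial and muscle cells, 8 stayed under 1 CPM in all libraries, CD3E and PECAM1 had no count, and all 10 together held 23.2 and 29.9 CPM in IP against 8.42 and 12.2 CPM in Input. Most of that was COL1A1, at 21.6 and 26.7 CPM in IP against 7.90 and 10.8 CPM in Input; its part in the members' values was not tested. The study's methods call the 2 RIPs duplicate experiments and the labels number them, but neither says whether the cells were separate cultures. The study's reporting summary says of its experiments in general that each was done independently at least 2 times. The p-values measure the spread between these libraries, which may be in part technical.

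Lysine methylation of histones is written and erased site by site, and the site decides what the mark is known for. Methylation of H3K4 is found at active promoters and enhancers, H3K36 methylation over transcribed gene bodies, and H3K9 and H3K27 methylation over silenced chromatin. Most writers carry a SET domain, most erasers a JmjC domain, and many of both are large proteins that hold several further domains. Replication origins are linked to this system through the BAH domain of ORC1, which binds methylated H4K20.

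Tandem GAA was searched in the members because the study examined such repeats in RNAs bound by ORC1. The motif searched was GAAGAAGAA, on the sense strand of the canonical GENCODE v44 transcript, with its reverse complement TTCTTCTTC searched beside it. It was found in the coding part of 18 of the 40 tested members, against 12.5% of 12534 protein-coding genes tested. The runs below are those of the 6 holders with the highest IP to Input fold change, followed by that of SETD3, the holder with the lowest, so that holders from both ends of the range can be read side by side. EHMT2 was added after the values were seen, as the other tested member with a run of 4 units. Capitals mark the GAA run, and the flanks stay within the coding exons that the run touches.
KMT2D: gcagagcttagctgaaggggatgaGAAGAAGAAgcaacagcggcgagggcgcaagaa
NSD1: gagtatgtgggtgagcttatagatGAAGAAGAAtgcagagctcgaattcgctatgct
SETD2: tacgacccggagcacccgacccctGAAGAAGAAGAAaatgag
EZH1: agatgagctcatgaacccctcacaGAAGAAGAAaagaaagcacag
KDM3A: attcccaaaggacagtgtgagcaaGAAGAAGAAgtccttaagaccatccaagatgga
KDM5A: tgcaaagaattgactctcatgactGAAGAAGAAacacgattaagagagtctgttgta
SETD3: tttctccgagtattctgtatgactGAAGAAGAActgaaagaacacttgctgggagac
EHMT2: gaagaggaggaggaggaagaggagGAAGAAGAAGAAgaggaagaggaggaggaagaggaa

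All positions are on GRCh38. The KMT2D window lies in exon 23 of 55 (chr12:49043905-49043961, minus strand), that of NSD1 in exon 19 of 23 (chr5:177282480-177282536, plus strand), and that of EZH1 in exon 13 of 21 (chr17:42709846-42709890, minus strand). The KDM5A window lies in exon 14 of 28 (chr12:328841-328897, minus strand) and that of EHMT2 in exon 8 of 28 (chr6:31889510-31889569, minus strand). The other windows cross an exon junction. That of SETD2 joins exons 1 and 2 of 21 (chr3:47163854-47163879 and chr3:47126648-47126663, minus strand). That of KDM3A joins exons 22 and 23 of 26 (chr2:86489407-86489437 and chr2:86489520-86489545, plus strand), and that of SETD3 joins exons 11 and 12 of 13 (chr14:99404225-99404252 and chr14:99400231-99400259, minus strand). In all 3 the run itself spans the junction.

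The 18 members held 20 such runs. In the reading frame, 12 runs in 10 members read as repeated GAA codons, which encode glutamate, and 8 runs in 8 members as AAG codons, which encode lysine; 0 runs read as AGA. The windows of KMT2D and EZH1 are of the lysine kind, and the other 6 shown are of the glutamate kind. In EHMT2, which encodes the H3K9 methyltransferase G9a, the run sits inside a longer stretch of GAA and GAG codons. TTCTTCTTC was in the coding part of 2 members, against 2.58% of all protein-coding genes tested.

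In the comparison of IP with Input, 21 of the 40 members were enriched (52.5%) and 0 were depleted by edgeR's quasi-likelihood test, where a call needed an adjusted p (Benjamini-Hochberg) under 0.05 and a change past 1 on the log2 scale. Over all genes tested, 10.5% were enriched and 8.30% depleted. Depleted genes were mostly short: 975 of 6603 protein-coding genes with under 1500 coding bases, and 53 of 4039 from 1500 to under 3000. From 3000 to under 6000 bases 4 of 1514 were depleted, and 0 of 378 at 6000 and over. Of the 40 members, 3 had under 1500 coding bases, so few depleted members would be expected at their lengths. At an unadjusted p below 0.05 with the same fold, 0 members were depleted, and DESeq2 and limma voom also called 0. Scaling by library size alone called 1 member depleted, SETD7 (log2 fold change -1.10, edgeR adjusted p = 0.0267). The shares of all genes depleted under these settings are not given here. The median log2 fold change of the members was 1.05, against 0.01 over all genes tested, and their median rank was at the 87.7th percentile of all genes tested. The ratio of IP to Input, as log2 of TMM-scaled CPM with 0.5 added, was above 0 in both replicates for 38 members, the exceptions being SETD3 and SETD7, and above 1 in both for 18. Over the 14645 genes tested, 6286 were above 0 in both replicates and 1311 above 1 in both.

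Both IP libraries stood above both Input libraries, with no overlap, for 33 of the 40 members, against 33.2% of all genes tested. The 7 members whose libraries overlapped were SUV39H1, KDM7A, KDM6A, KDM2B, SUV39H2, SETD3 and SETD7. The members' ratios in replicates 1 and 2 followed each other across genes (Pearson r = 0.895, n = 40 genes measured in the same 4 libraries), with a median difference of 0.18 and 19 members higher in replicate 2. KMT2E, a SET protein of the MLL family, differed most between replicates, with log2 ratios of 0.84 and 1.66.

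**Figure D1:**
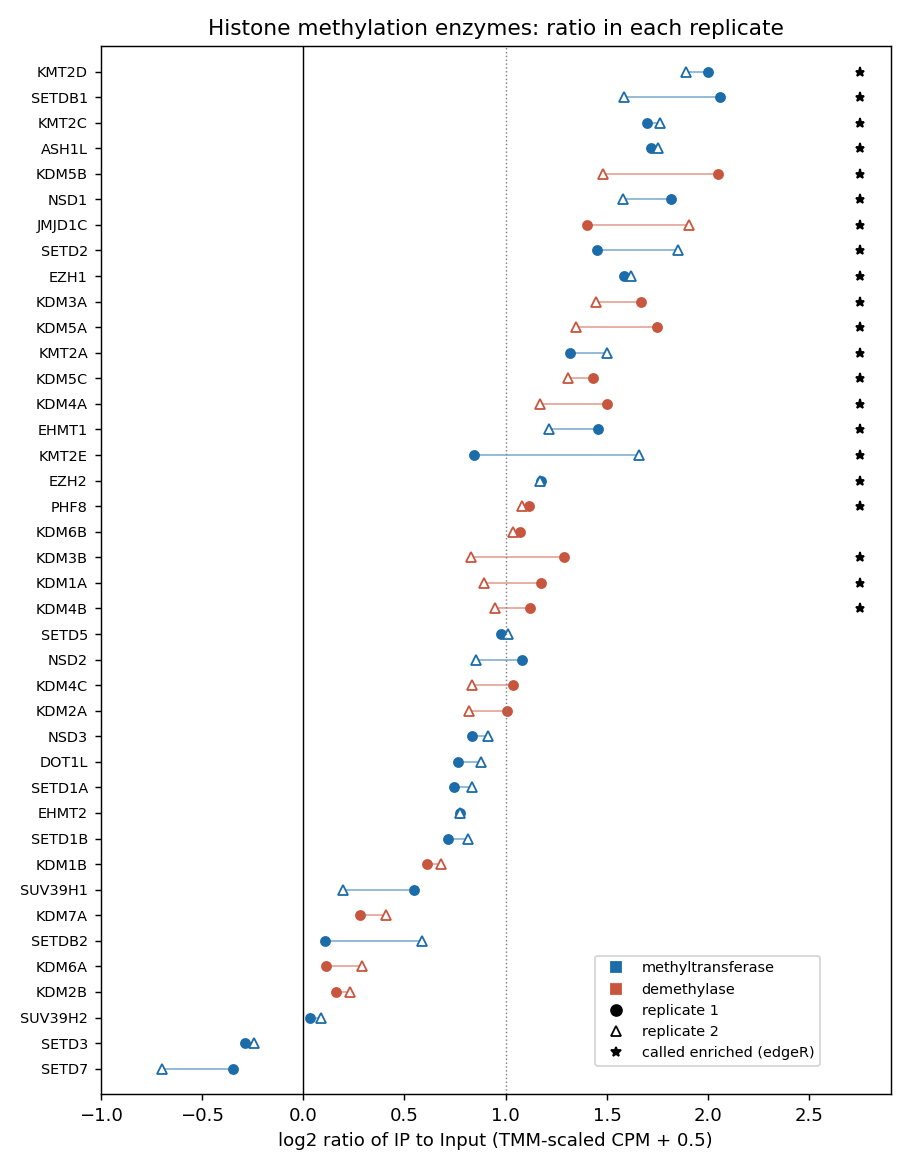
Log2 ratio of IP to Input (TMM-scaled CPM with 0.5 added) of the 40 tested members, ordered by edgeR log2 fold change, with circles for replicate 1, triangles for replicate 2, blue for methyltransferases, red for demethylases and stars for members called enriched. Both symbols lie right of 0 for 38 members, and both symbols of SETD3 and SETD7 lie left of it.

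The members described in full below lie at the following places of GRCh38. KMT2D (ENSG00000167548) spans chr12:49018975-49060794, KMT2C (ENSG00000055609) chr7:152134922-152436644, SETDB1 (ENSG00000143379) chr1:150926263-150964744 and ASH1L (ENSG00000116539) chr1:155335268-155563162. NSD1 (ENSG00000165671) spans chr5:177131830-177300213, SETD2 (ENSG00000181555) chr3:47016428-47164113, KDM5B (ENSG00000117139) chr1:202724495-202808487 and JMJD1C (ENSG00000171988) chr10:63167221-63521850. At the lower end, SUV39H2 (ENSG00000152455) spans chr10:14878820-14904315, SETD7 (ENSG00000145391) chr4:139495941-139606699 and KDM2B (ENSG00000089094) chr12:121429096-121581023.

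KMT2D had the highest fold change of the members. It encodes a very large methyltransferase that writes H3K4 monomethylation at enhancers. Its level was 504 and 545 CPM in IP against 126 and 146 CPM in Input. The IP libraries lay well above both Inputs, and the log2 fold change was 1.95 ± 0.25, where the error is the SE of the edgeR fit (adjusted p = 0.0105). KMT2C, its close relative with the same activity, had 233 and 331 CPM in IP against 71.2 and 97.4 CPM in Input. The log2 fold change was 1.74 ± 0.30 (edgeR adjusted p = 0.0133), and again the lower IP library was above the higher Input. KMT2A (MLL1), known from the gene fusions of leukaemia, was enriched at 1.42 ± 0.26, with IP levels of 663 and 800.0 CPM and Input levels of 266 and 282 CPM.

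SETD1A and SETD1B, which supply most H3K4 trimethylation at promoters, lay lower in the same family. SETD1A had 72.6 and 70.2 CPM in IP against 43.1 and 39.2 CPM in Input, a log2 fold change of 0.79 ± 0.21. SETD1B had 0.77 ± 0.21. Both had an edgeR adjusted p under 0.05 (0.0384 and 0.0413) but a fold change under the threshold, so neither was called. The remaining member of this COMPASS family, KMT2B, could not be placed. The annotation release used for the counting is not stated, so its reads may have been counted under another identifier, and its 0 is no measure of its level.

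SETDB1, the methyltransferase that trimethylates H3K9 over silenced retroelements, had the second highest fold change. It stood at 153 and 139 CPM in IP against 36.3 and 45.8 CPM in Input, with a log2 fold change of 1.83 ± 0.24 (edgeR adjusted p = 0.0105). Exons of CERS2 lie on the opposite strand of 12.9% of its exonic bases; CERS2 had a log2 fold change of -0.90 (edgeR adjusted p = 0.0850), and the strand setting of the counting is not stated. Among the tested genes that overlap members, 3 were enriched. By edgeR these were SRPK2 opposite KMT2E (1.51, adjusted p = 0.0133), CCDC77 opposite KDM5A (1.87, adjusted p = 0.0238) and RNF34 opposite KDM2B (1.04, adjusted p = 0.0350). Opposite exons made up 4.17%, 0.399% and 4.92% of the exonic bases of KMT2E, KDM5A and KDM2B. The other overlapping genes tested were not called, among them PLEKHJ1 opposite DOT1L (-0.13), DDHD2 opposite NSD3 (-0.0066) and DCLRE1C opposite SUV39H2 (0.41). The other H3K9 methyltransferases were spread over the rest of the range. EHMT1 (GLP), the partner of G9a, was enriched at 1.34 ± 0.23, whereas EHMT2 (G9a) itself had 159 and 124 CPM in IP against 92.7 and 72.4 CPM in Input, a log2 fold change of 0.78 ± 0.26 that was not called (edgeR adjusted p = 0.0697). SUV39H1, SUV39H2 and SETDB2 had log2 fold changes of 0.40, 0.05 and 0.34, and none was called.

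SUV39H2, which trimethylates H3K9 in constitutive heterochromatin, was the methyltransferase nearest to no difference. Its IP levels were 29.0 and 18.7 CPM and its Input levels 28.3 and 17.5 CPM, so that each IP library matched the Input of its own replicate more closely than the other IP library. The log2 fold change was 0.05 ± 0.33 (edgeR adjusted p = 0.925). Of SUV39H1's exonic bases, 21.2% lie opposite another annotated gene. The libraries were made with a stranded kit, but whether the counting used the strand is not stated, so reads of that gene may not have been told apart.

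Among the H3K36 methyltransferases, ASH1L, NSD1 and SETD2 were enriched and NSD2 and NSD3 were not. ASH1L, which writes H3K36 dimethylation, had 390.2 and 378 CPM in IP against 118 and 112 CPM in Input, a log2 fold change of 1.74 ± 0.24 (edgeR adjusted p = 0.0105). NSD1, mutated in Sotos syndrome, had 675 and 595 CPM in IP against 191 and 199 CPM in Input, a log2 fold change of 1.70 ± 0.25 (edgeR adjusted p = 0.0108). For both genes the 2 Input libraries were close together and the IP libraries far above them. SETD2, the main enzyme of H3K36 trimethylation, had 429 and 426 CPM in IP against 157 and 118 CPM in Input, a log2 fold change of 1.64 ± 0.26 (edgeR adjusted p = 0.0121). NSD2 and NSD3, shorter relatives of NSD1, had log2 fold changes of 0.98 ± 0.25 and 0.87 ± 0.25, with edgeR adjusted p of 0.0340 and 0.0470 and a fold change under the threshold.

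EZH1 and EZH2, the alternative catalytic subunits of Polycomb repressive complex 2, write H3K27 methylation, and both were enriched. EZH1 had 44.7 and 57.0 CPM in IP against 14.5 and 18.2 CPM in Input, a log2 fold change of 1.64 ± 0.25. EZH2, the subunit of dividing cells, had 180.0 and 146 CPM in IP against 79.4 and 64.5 CPM in Input, a log2 fold change of 1.18 ± 0.25. DOT1L, the H3K79 methyltransferase that has no SET domain, had a log2 fold change of 0.83 ± 0.21, under the fold threshold, and 11.3% of its exonic bases lie opposite other genes.

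The lowest values belonged to SETD3 and SETD7, 2 SET-domain genes with short coding sequences. SETD7, which monomethylates H3K4 and many other proteins, had 178 and 99.7 CPM in IP against 226 and 162 CPM in Input. Its IP replicate 1 was above Input replicate 2, so the groups overlapped, and its log2 fold change of -0.48 ± 0.34 was not called (edgeR adjusted p = 0.337). SETD3, best known as the histidine methyltransferase of actin, had 67.2 and 53.6 CPM in IP against 82.1 and 63.5 CPM in Input, a log2 fold change of -0.27 ± 0.25 (edgeR adjusted p = 0.466). SETD5, whose own methyltransferase activity is disputed, had a log2 fold change of 1.00 ± 0.24 (edgeR adjusted p = 0.0272), just under the threshold, and KMT2E was enriched at 1.23 ± 0.28.

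**Figure D2:**
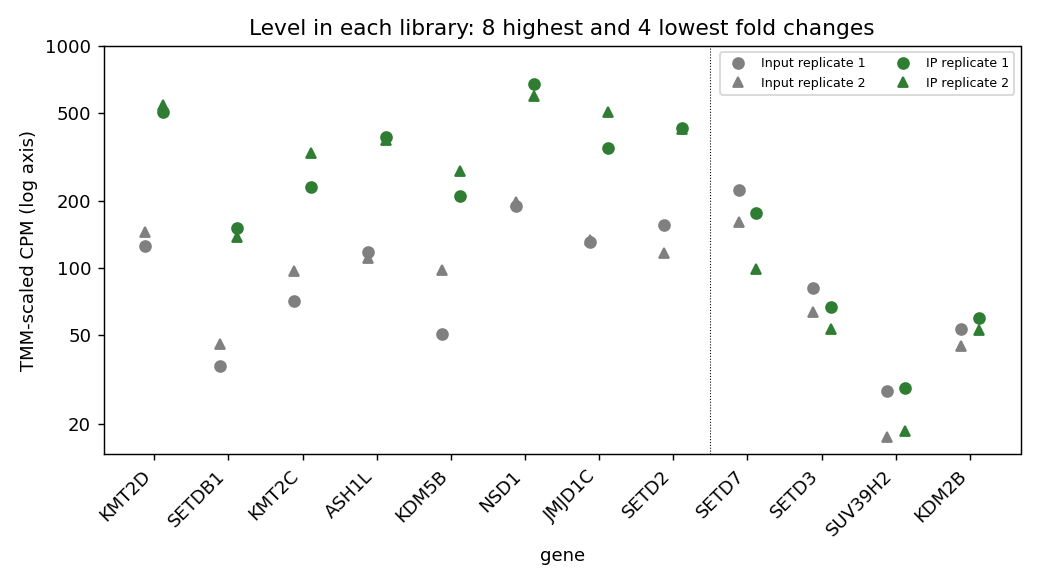
TMM-scaled CPM (log axis) in each library for the 8 members with the highest log2 fold change, left of the dotted line, and the 4 with the lowest, right of it, with grey for Input, green for IP, circles for replicate 1 and triangles for replicate 2. In the 8 members on the left both IP libraries lie above both Input libraries, from KMT2D at 504 and 545 CPM against 126 and 146 CPM; on the right SETD7 has 178 and 99.7 CPM in IP against 226 and 162 CPM in Input.

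The demethylases spanned a narrower range, from 0.20 to 1.71 on the log2 scale, and 10 of 17 were enriched. All 3 KDM5 members, which remove H3K4 trimethylation, were among them. KDM5B had 211 and 275 CPM in IP against 50.6 and 98.2 CPM in Input, with Input replicate 2 far above Input replicate 1 and both IP libraries above both. Its log2 fold change was 1.71 ± 0.36 (edgeR adjusted p = 0.0204). KDM5A and the X-linked KDM5C had 1.52 ± 0.30 and 1.37 ± 0.24.

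The 3 genes of the KDM3 group, listed here under H3K9, were also enriched. JMJD1C, the largest of them, had 349 and 503 CPM in IP against 132 and 134 CPM in Input, a log2 fold change of 1.68 ± 0.28 (edgeR adjusted p = 0.0130). The Input libraries were nearly equal, and the spread lay between the IP libraries. KDM3A followed at 1.54 ± 0.38 and KDM3B at 1.06 ± 0.25. In the KDM4 group, which removes H3K9 and H3K36 trimethylation, KDM4A and KDM4B were enriched at 1.35 ± 0.23 and 1.03 ± 0.30, while KDM4C had 0.93 ± 0.28 and was not called (edgeR adjusted p = 0.0542). In GENCODE v44, 40.2% of KDM4A's exonic bases are shared with another gene of the same strand and 9.12% lie opposite one. For KMT2A the shared part was 18.3%. Whether these other genes were in the annotation used for the counting is not known here.

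KDM1A (LSD1), the flavin-dependent eraser of H3K4 mono- and dimethylation, was enriched at 1.05 ± 0.27, from 349 and 317 CPM in Input to 788 and 589 CPM in IP. Its paralogue KDM1B had 0.66 ± 0.21 and was not called. The H3K27 demethylases KDM6A (UTX) and KDM6B (JMJD3) were not called either, at 0.21 ± 0.23 and 1.07 ± 0.36. KDM6B had 36.7 and 61.3 CPM in IP against 17.2 and 29.6 CPM in Input. The log2 ratios of KDM6B were 1.07 and 1.04, nearly the same in both replicates, and its edgeR adjusted p of 0.0720 became 3.33e-05 with a replicate block, which paired each IP with the Input of the same RIP. With so few libraries, that fit leans on variance estimates shared across genes. The edgeR adjusted p fell for other members too, as for KMT2D from 0.0105 to 4.16e-07. With the block, 22 members were enriched, against 13.4% of all genes tested.

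PHF8, an H3K9 and H4K20 demethylase, was enriched at 1.11 ± 0.21, and its relative KDM7A had 0.37 ± 0.29. KDM2A and KDM2B, H3K36 demethylases with a CXXC domain that binds CpG islands, had 0.92 ± 0.23 and 0.20 ± 0.23, and neither was called. KDM2B was the demethylase with the lowest fold change, which was also the one nearest 0. Its levels were 60.1 and 52.8 CPM in IP against 53.7 and 44.8 CPM in Input, with IP replicate 2 below Input replicate 1, and its edgeR adjusted p was 0.562.

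Writers and erasers had nearly the same median. Of the 23 methyltransferases tested 11 were enriched (47.8%), with a median log2 fold change of 1.00, and of the 17 demethylases 10 (58.8%), with a median of 1.06. The order of these shares turned with library size in place of TMM factors, at 7 of 23 writers and 1 of 17 erasers, and with upper-quartile scaling, at 11 of 23 and 5 of 17. The medians differed by -0.06 (writers minus erasers), less than the SD of 0.151 between the 2 replicates' values of that difference. In replicate 1 the median log2 ratio was 0.98 for writers and 1.12 for erasers, and in replicate 2 it was 1.01 and 0.95, so the order turned between replicates. IP and Input did not overlap for 19 of 23 writers and 14 of 17 erasers. No test between the classes was run, since genes are not replicates.

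Members with longer coding sequences had higher fold changes. Across the 40 members, the Spearman correlation of log2 fold change with the coding length of the canonical transcript was 0.595, and 0.510 and 0.640 for the ratios of replicates 1 and 2. It was 0.708 across the 23 writers and 0.473 across the 17 erasers. Across all 12534 protein-coding genes tested it was 0.590, so the members followed the same trend as other genes; all points share the 4 libraries. With the length of all exons in place of coding length, the correlation was 0.400 over the members and 0.297 over all protein-coding genes. The Input level in CPM gave 0.347 over the members and 0.149 over all protein-coding genes, the Input level per kilobase of exon -0.0090 over the members, and the GC content of the transcript 0.033.

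Under 1500 coding bases, 0 of 3 members were enriched (SUV39H1, SUV39H2 and SETD7), against 3.45% of all protein-coding genes of that length. From 1500 to under 3000 bases 3 of 7 were enriched, against 13.1%, and from 3000 to under 6000 bases 11 of 23, against 32.9%. At 6000 bases and over, 7 of 7 were enriched, against 63.0%. These were KMT2A, KMT2C, KMT2D, ASH1L, NSD1, SETD2 and JMJD1C. In the class from 3000 to under 6000 bases, 3 of 10 writers and 8 of 13 erasers were enriched, with median log2 fold changes of 0.92 and 1.07. Of the 40 members, 33 lay above the median of all genes in their length class, with a median difference of 0.30 on the log2 scale over all 40. The classes were not matched for level. Median Input was 72.4 CPM over the members and 25.2 CPM over all protein-coding genes tested, and the part of this difference was not tested.

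Some members stood far from their length class. EZH1, with 2241 coding bases, was 1.30 above the median of its class, SETDB1 with 3876 bases was 1.02 above, and KDM5B with 4632 bases 0.90 above. KDM2B, SETD3 and KDM6A lay below the median of theirs, with differences of -0.62, -0.60 and -0.60. KDM6A has 4359 coding bases, close to the 4311 of NSD3 and the 4326 of SETD5, which had log2 fold changes of 0.87 and 1.00.

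**Figure D3:**
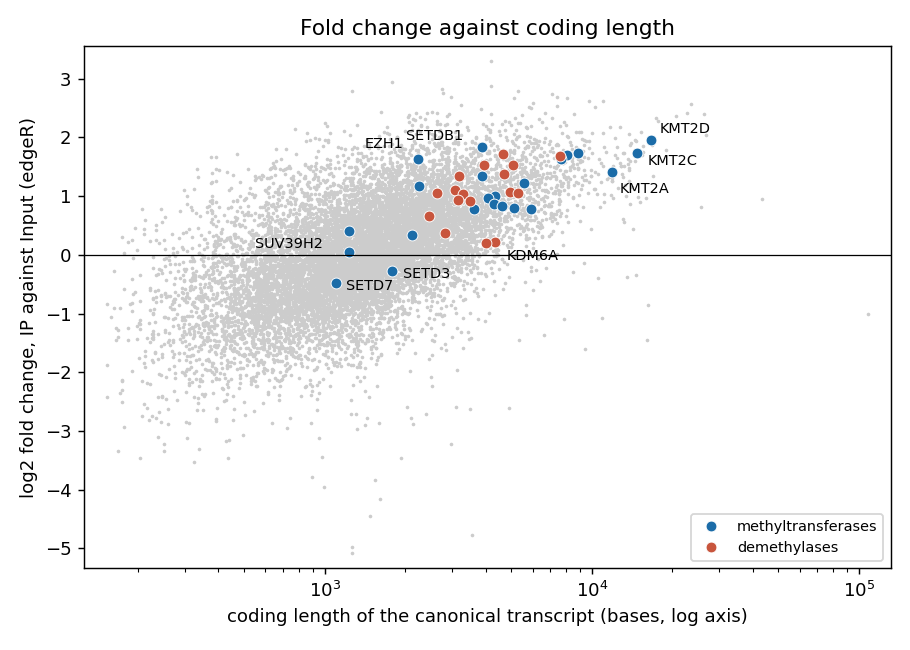
Log2 fold change of IP against Input (edgeR) against the coding length of the canonical transcript in bases (log axis), for 12534 protein-coding genes (grey), methyltransferases (blue) and demethylases (red). The 7 members with 6000 or more coding bases lie between 1.42 and 1.95, and SETD7, with 1098 coding bases, lies at -0.48.

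Of the 18 members with the GAA run shown above 10 were enriched, and of the 22 without one 11, with median log2 fold changes of 1.10 and 1.05. The medians with and without it were 1.20 and 0.98 among writers and 0.97 and 1.07 among erasers. Over all protein-coding genes tested the gap was wider, with 550 of 1562 genes with the run enriched and 942 of 10972 without it, at medians of 0.78 and -0.0057. Of the holders shown, KMT2D stood at 1.95 and SETD3 at -0.27. The run was in 0 of 3, 4 of 7, 10 of 23 and 4 of 7 members in order of the length classes. Over all protein-coding genes of those classes it was in 6.97%, 13.6%, 26.0% and 41.5%.

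Nuclear levels of the mRNAs were compared per kilobase of exon, counting all annotated exons. The Input level ran from 1.31 and 0.915 CPM per kilobase in replicates 1 and 2 for SETDB2 to 20.6 and 25.3 for KDM3B. KDM1A (19.0 and 17.3), SETD7 (16.2 and 11.6), SETD3 (15.8 and 12.2) and NSD2 (13.4 and 13.1) followed KDM3B in replicate 1. In replicate 2 the order after KDM1A was NSD2, KDM2A (12.8), SETD3, JMJD1C and SETD7, so only the first 2 places were the same in both. The 2 members with a log2 fold change under 0 were thus among the better represented in Input. SETDB2 had the fewest reads, 152 and 71 in the Input libraries, while the median member had 1141 and 800.

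The other genes of this chromatin system were taken from lists of partner subunits, related enzymes and readers. The partners of the COMPASS methyltransferases had a median log2 fold change of 0.57, with 2 of 13 enriched and 1 depleted. With the replicate block 3 of 13 were enriched, PSIP1 being added (log2 fold change 1.12, edgeR adjusted p = 0.0246, against 0.86 and 0.317 without the block), and its log2 ratios were 0.47 and 1.79. BOD1L1 was highest at 2.09, and CXXC1, the CpG-binding subunit of the SETD1 complexes, was enriched at 1.03. The depleted gene was DPY30, a small subunit shared by all COMPASS complexes, with 10.6 and 9.44 CPM in IP against 26.5 and 15.3 CPM in Input. The log2 fold change was -1.07 ± 0.31 (edgeR adjusted p = 0.0489). Of 9 PRC2 partners JARID2 alone was enriched, at 1.16, with a list median of 0.49 and PHF19 lowest at -0.32.

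Of 11 partners of KDM1A 3 were enriched (ZMYM2, HDAC2 and HDAC1), from ZMYM2 at 1.75 to RCOR3 at 0.14, with a median of 0.63. Of 13 other lysine methyltransferases 4 were enriched, from KMT5A at 1.40 to SMYD5 at -0.30, with a median of 0.48. KMT5A monomethylates H4K20, and it had 108 and 57.7 CPM in IP against 39.7 and 23.1 CPM in Input (edgeR adjusted p = 0.0423). KMT5B and KMT5C, which carry that mark on to the di- and trimethylated forms, were looked up after the values were seen and had 0.48 and 0.19, with neither called.

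Of 10 other JmjC proteins 1 was enriched, PHF2 at 1.04, with a median of 0.09 and JMJD8 lowest at -0.69. Of 8 protein arginine methyltransferases 0 were enriched, with a median of 0.29, PRMT7 highest at 0.68 and PRMT6 lowest at -0.63. Methyl-lysine readers had a median of 0.93 with 7 of 24 enriched, or 11 of 24 with the replicate block, from BPTF at 2.09 to CBX5, which encodes HP1 alpha, at -0.81. Histone acetylation enzymes had a median of 0.39 with 7 of 25 enriched, from the acetyltransferase EP300 at 1.65 to the deacetylase SIRT6 at -0.69. ATP-dependent chromatin remodellers had the highest median of the lists, 1.53, with 23 of 29 enriched, from SMARCA1 at 2.29 to HELLS at -0.14. Their median coding length was 4941 bases, against 4052 for the members, 1884 for the COMPASS partners, 1250 for the other JmjC proteins and 1709 for the arginine methyltransferases.

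**Figure D4:**
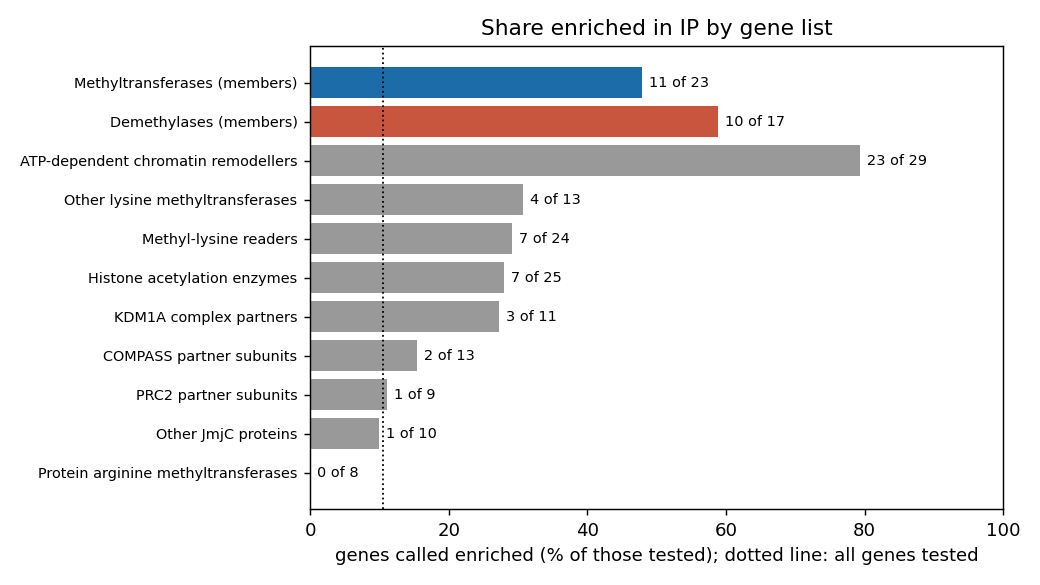
Share of tested genes called enriched in IP by edgeR (%), for the methyltransferases (blue), the demethylases (red) and 9 lists of related chromatin genes (grey), with counts beside the bars and a dotted line at the 10.5% of all genes tested. The bars run from 23 of 29 remodellers to 0 of 8 arginine methyltransferases.

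Calls depended on the scaling, and fold changes on single libraries. With library size alone in place of TMM factors, the median of all genes moved by -0.60 and 8 members were enriched (2.59% of all genes), 7 writers and 1 eraser; with upper-quartile scaling 16 were enriched (7.37% of all genes), 11 writers and 5 erasers. The median of the members minus that of all genes was 1.03 and 1.04 under these settings, against 1.04 with TMM. When each library was left out in turn, 1 group held a single library, so fold changes alone are given for those fits. Of the 21 enriched members, KDM1A fell below 1 on the log2 scale without IP replicate 1 (0.87). EZH2 and KDM3B stayed just above it there (1.06 and 1.02). Without IP replicate 2, KDM4B fell below 1 (0.84). KDM3B and KDM4B did so without Input replicate 1 (0.96 and 0.78), and KMT2E, EZH2, KDM1A and PHF8 without Input replicate 2 (0.80, 0.88, 0.83 and 0.95).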

How the data were processed

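Nuclear RNA of transfected HCT116 cells was sequenced as 2 ORC1-FLAG IP and 2 Input libraries from ribosome-depleted total RNA. The authors deposited unnormalized whole-number read counts for each gene. Per the labels and the study's methods, Trimmomatic was used for trimming, STAR for alignment and featureCounts for counting, on hg19 with an Ensembl annotation and without reads on GL contigs. The annotation release, the strand setting and the handling of multiply aligned reads are not given in the sources used here, so reads of overlapping genes and close paralogues may be split between them. Reads carry no molecular identifiers.

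Coordinates, lengths and sequences are those of GENCODE v44 (GRCh38), another build than that of the counts, joined by Ensembl identifier (14265 of 14645 genes tested). Windows were checked against the GRCh38 genome. Exonic length is the union of a gene's exons; coding length is that of the canonical transcript, with a minimum of 150 bases. No protein sequences were used here.

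IP was compared with Input in edgeR 4.0.16 under R 4.3.3, with the robust quasi-likelihood test, TMM scaling (factors 0.758 and 0.868 for IP, 1.19 and 1.28 for Input), filterByExpr and group as the only term, over all genes. The biological coefficient of variation was 0.261. SE is the absolute log2 fold change over the square root of F. CPM were computed from the counts and TMM factors. The scripts were tested on simulated data. The labels tie IP and Input of the same number to 1 RIP, and deviations from the group means of same-numbered libraries correlated across genes (r = 0.637), so a replicate block was fitted as an alternative. Other alternatives were RLE, library-size and upper-quartile scaling, no filter and a filter of 1 CPM in 2 libraries, DESeq2 1.42.0, limma voom (limma 3.58.1), a pseudocount of 2, other lengths and leaving out each library. The median of the members minus that of all genes was added after seeing the data.

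The 41 members and all lists were chosen with earlier results of these data known. Members described in full were the 8 enriched with the highest log2 fold change, any depleted, and the writer and eraser nearest 0 and lowest; the others are given by group. In each further list the highest and lowest gene and any depleted gene are named. PAGR1, EPOP and UHRF1 were not matched by identifier and were not analysed here.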

Additional observations from a re-analysis of the deposited data

How the results depend on the processing

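With 2 libraries a group, values of single members carry standard errors of 0.21 to 0.38 on the log2 scale, and the difference of writers from erasers has an SD of 0.151 between replicates. With library size only, 8 members were enriched and 1 depleted (SETD7), with 7 writers and 1 eraser enriched, and the median log2 fold change of the members was 0.44. With upper-quartile scaling 5 erasers were enriched and the median was 0.87. Under the other alternatives that kept all libraries, between 20 and 24 members were enriched and 0 depleted. For these, the share of all genes enriched is given here for the replicate block alone (13.4%). Without each library in turn, the median of the members ran from 0.92 (without Input replicate 2) to 1.16 (without IP replicate 2). Writers minus erasers, -0.06 as reported, ran from -0.30 without Input replicate 2 to a reversed 0.14 without Input replicate 1. The Spearman correlation with length was 0.40 with exonic length. The median of all genes moved by -0.60 with library size, -0.17 with upper-quartile scaling, -0.35 with no filter and -0.34 with DESeq2; the median of the members minus that of all genes stayed between 0.95 and 1.42.

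Members near 0 turned sign. With library size only, the log2 fold changes were -0.25 for SETDB2, -0.21 for SUV39H1, -0.56 for SUV39H2, -0.41 for KDM2B, -0.38 for KDM6A and -0.22 for KDM7A. SUV39H2 was at -0.12 with upper-quartile scaling and at -0.26 without IP replicate 1. Leaving out Input replicate 2 gave SUV39H2 -0.40, SETDB2 -0.039 and KDM2B -0.077, and leaving out Input replicate 1 gave them 0.48, 0.67 and 0.37. The cause was not tested, beyond the shift of all genes given above. The 21 enriched members kept a log2 fold change above 0 under all alternatives run. Under all alternatives that kept all libraries, 8 kept their call (ASH1L, EZH1, JMJD1C, KMT2C, KMT2D, NSD1, SETD2 and SETDB1). Among the members not called, leaving out 1 library could move KDM4C, NSD2, NSD3, EHMT2, SETD5 and KDM2A past 1 on the log2 scale. KDM6B, already past 1, was at 1.44 without IP replicate 1 and at 1.37 without Input replicate 2. The replicate block, with a median of 1.05 and 22 members enriched, added the call of KDM6B and changed no other member's call.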
